A study of Mus musculus with 15 samples.

Results

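The comparison described here set 5 mouse choroid plexus carcinomas against 5 samples of normal choroid plexus, 10 of the 15 arrays in the series, over every gene that could be measured. Arrays were assigned by their titles, and each group had 5. The carcinomas came from animals of genotype Atoh1-Cre; Myc/Myc; p53fl/fl and the normal tissue from Myc/Myc; p53fl/fl animals, which carried the same alleles but no Cre. The remaining 5 arrays were papillomas from Atoh1-Cre; Myc/Myc animals, the benign tumour, and they are used below where a direct test shows how carcinoma differs from it. All animals were of a mixed background, given as C57Bl/6 and 129 mix. Tumours were taken when the mice showed signs of disease, and the ages of the animals and of the control tissue were not stated. The series' design says that replicates were taken from different mice, and whether each normal sample was 1 animal is not stated. Cre was driven by regulatory sequence of Atoh1, a gene of the dorsal hindbrain lineages, and the tissue was profiled whole. Because the groups differ by Cre, effects of Cre itself, of the Myc alleles and of the p53 alleles cannot be told apart, and Trp53, the p53 gene, had no probe set of its own with which to check its deletion. In such bulk samples fewer cells of a type and less RNA per cell cannot be told apart.

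The choroid plexus is a sheet of epithelium over a core of fenestrated vessels and stroma. Its epithelial cells carry tufts of cilia, seal the blood-cerebrospinal fluid barrier with tight junctions, move ions and water into the ventricles and secrete transthyretin and other proteins. Myc is a transcription factor that promotes ribosome production, metabolism and cell cycle entry, and p53 is a transcription factor that halts the cycle or triggers death after DNA damage or oncogene stress. Choroid plexus carcinoma in patients is a tumour of childhood in which loss of p53 function is frequent.

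The values are log2 intensities after robust multi-array averaging (RMA), 1 probe set for each gene. A difference of 1 on this scale is 2-fold. The array medians lay between 6.79 and 6.90, so values near 7 or below are dim and their folds are compressed. Both tissues carried the defining transcripts of choroid plexus epithelium. Transthyretin (Ttr) measured 14.46, 14.43, 14.51, 14.42 and 14.45 in carcinomas 1 to 5 and 14.55, 14.58, 14.55, 14.57 and 14.55 in normal arrays 1 to 5, close to the top of the scale in every array, and the mean of the 11 epithelial markers was 13.02 to 13.08 in normal tissue and 12.31 to 12.65 in the carcinomas. Myc itself measured 8.19, 8.97, 8.31, 8.17 and 8.64 in carcinomas 1 to 5 and 7.52, 7.62, 7.71, 7.72 and 7.70 in normal arrays 1 to 5. The groups did not overlap and the gene rose by 0.80 (SE 0.14, limma adjusted p = 0.000166), although the probe set does not separate a transgenic or recombined allele from the normal one. Atoh1 lay at 6.67 to 6.90 in normal tissue and 6.47 to 6.96 in the carcinomas. Sex-linked transcripts showed a mixture in the control group. Carcinomas 2, 3 and 5 had Xist, at 12.53 to 12.75, with the Y-linked Uty at 4.88 to 5.82, and carcinomas 1 and 4 had the opposite pattern. Normal array 1 had Uty at 10.29 and Xist at 6.35, whereas in normal arrays 2 to 5 both were present, Xist at 10.69 to 12.48 and Uty at 7.98 to 10.44. The labels do not mention pooling of animals.

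The carcinomas differed from normal tissue across a large share of the transcriptome. In the limma fit 37.9% of genes passed an adjusted p of 0.05, with 4151 genes (18.7%) higher and 4252 (19.2%) lower in carcinoma. The change was at least 2-fold in 979 (4.41%) and 988 (4.45%) of these, at least 4-fold in 209 and 253, and at least 8-fold in 44 and 59. For 29.9% of genes no carcinoma value lay within the normal range, 14.6% higher and 15.2% lower. For 10 genes named below, the mean of the gene's probe sets gave the same direction and a change smaller by a factor of 1.5 or more. These values were -1.05 for Bcl2, 0.83 for Car9, 0.83 for Gart, 1.17 for Myb, 1.43 for Pole, -2.24 for Rmst, 1.53 for Rrm2, 0.99 for Sfrp2, -1.10 for Slc12a4 and 1.56 for Slc1a5, all past the threshold. The median change over all genes was -0.02, and the counts and medians of the gene lists below stand against these shares. Carcinomas varied more among themselves than normal samples did, with a median SD over genes of 0.19 against 0.12, and 209 genes had an SD above 1 in carcinoma against 15 in normal tissue. Since normal arrays 2 to 5 held both Xist and Y-linked transcripts and may not be single animals, these SDs may not measure the same kind of spread. Few genes crossed between the dim and the bright part of the scale in every array. From below the array median in every normal array, 9 genes reached the top 25% in every carcinoma, and 11 went the opposite way. Apart from predicted genes, those that rose in this way were Chrdl1, Dtl, Esco2, Mcm3, Pbk, Slc35f2 and Top2a. Those that fell in this way were Cdkl4, Fam81b, Lrrtm2, Lum, Rmst and Tmprss11a. The cilium gene Cfap43 (-3.46), Lrrc9 (-3.64) and the extracellular matrix gene Coch (-3.01) did so too and are named only for this pattern. A value below the array median does not show that a transcript is absent.

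**Figure D1:**
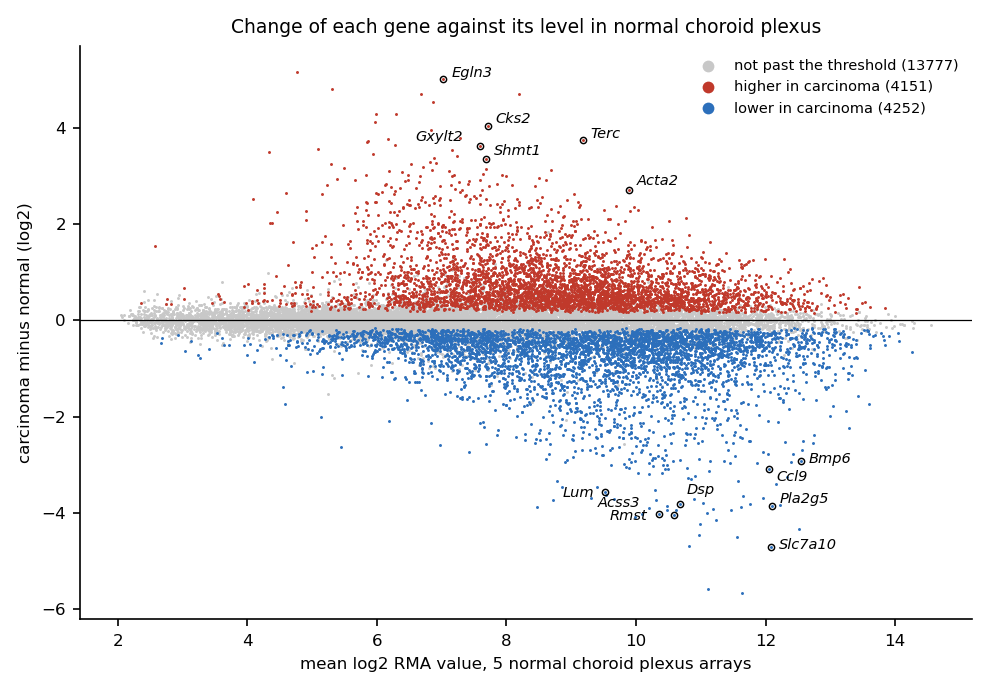
Carcinoma minus normal log2 difference of each gene tested against its mean log2 value in the 5 normal arrays, coloured by the limma call at an adjusted p of 0.05. Among the labelled genes, Egln3 and Cks2 rose from means below 8 and Slc7a10 and Pla2g5 fell from means near 12.

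Below the 8 largest rises, the genes ranked 9 to 20 were mostly of the dividing cell. They were Cks2, a subunit of cyclin-dependent kinases (up 4.04), the proliferation antigen Mki67 (up 3.97), the S and G2 phase cyclin Ccna2 (up 3.79), the replication-type histone gene H2bc12 (up 3.72), the checkpoint kinase Bub1 (up 3.70), the topoisomerase Top2a (up 3.65), the spindle-associated hyaluronan receptor Hmmr (up 3.57) and Ube2c, the ubiquitin-conjugating enzyme of the anaphase-promoting complex (up 3.54). The others of the 12 were Slc35f2, a solute carrier (up 3.77), Gxylt2, which adds xylose to the glucose on Notch repeats (up 3.63), the secreted ribonuclease Rnase1 (up 3.51) and Terc. Terc, on chromosome 3, is the RNA template of telomerase. It measured 13.07, 13.45, 12.81, 11.94 and 13.38 in carcinomas 1 to 5 and 9.37, 9.21, 8.98, 8.87 and 9.47 in normal arrays 1 to 5. No carcinoma overlapped with normal tissue, and the rise was 3.75 (SE 0.36, limma adjusted p = 4.87e-07), which is 13.4-fold.

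The genes ranked 9 to 20 among the falls were of a different kind. Cfap65 (-4.01), Cfap206 (-3.88), the dynein heavy chain Dnah6 (-3.85) and the radial spoke component Iqub (-3.84) belong to the motile cilium, and Meig1 (-3.95) is known from sperm formation. The neural long noncoding RNA Rmst (-4.04), the synaptic adhesion gene Lrrtm2 (-3.94), the neural gene Brinp1 (-3.92) and Cdr1os, a noncoding transcript of the Cdr1 locus (-3.87), fell by a like amount. The remaining genes were the acyl-CoA synthetase Acss3 (-4.03), Fam81b (-4.02) and the secreted phospholipase Pla2g5 (-3.85). Rmst fell from 10.95, 10.55, 10.62, 10.79 and 10.05 in normal arrays 1 to 5 to 6.53, 6.72, 6.46, 6.52 and 6.51 in carcinomas 1 to 5. It ended below the array median in every carcinoma, as did Cdr1os, Fam81b and Lrrtm2, so the size of these falls is uncertain.

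Nearly all cell division genes rose. Of 41 measured genes of the mitotic spindle and chromosome segregation, 40 rose and 1 did not pass, with a median log2 change of 2.58. Ccnb2, a mitotic cyclin and the leading gene of the growth lists, measured 11.50, 11.83, 11.30, 11.61 and 10.74 in carcinomas 1 to 5 and 6.46, 7.17, 6.79, 6.93 and 6.95 in normal arrays 1 to 5. The lowest carcinoma stood more than 3 above the highest normal array, and the rise was 4.53 (SE 0.18, limma adjusted p = 4.56e-11). Of 44 DNA replication genes 41 rose (median 1.19), led by Dtl, which marks replication licensing factors for destruction (up 4.28), the helicase subunits Mcm3 (up 2.88) and Mcm6 (up 2.42), and the polymerase Pole (up 2.78). Repair genes outside the fork moved less uniformly. Of 31, 19 rose and 3 fell (median 0.78). The checkpoint kinase Chek2 rose by 2.27 and the homologous recombination genes Rad54l and Brca1 by 1.91 and 1.79, while the mismatch repair gene Pms2 fell by 0.75 on the log2 scale and the excision nuclease Ercc5 fell by 0.43 on the log2 scale. The mitotic list also varied most between tumours after the interferon genes. Its mean per array was 9.70, 10.16, 9.39, 9.87 and 8.93 in carcinomas 1 to 5 and 7.0 to 7.07 in normal tissue, so that carcinoma 5 was lowest and carcinoma 2 highest.

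The promoters of the leading division genes are shown for the letters they share. Each line gives the 250 bases before the RefSeq start of the gene, 5′ to 3′ on the strand of the gene, with the matches in capitals. The motifs were the cell cycle homology region (CHR, TTTGAA or TTCGAA) and the CCAAT box in the first 3 genes, and an E2F site (TTTGGCGC, TTTCCCGC or TTTCGCGC) in the last 2, each searched on both strands. The genes are the mitotic genes with both of the first motifs, and the replication genes with an E2F site, that rose most.
Ccnb2: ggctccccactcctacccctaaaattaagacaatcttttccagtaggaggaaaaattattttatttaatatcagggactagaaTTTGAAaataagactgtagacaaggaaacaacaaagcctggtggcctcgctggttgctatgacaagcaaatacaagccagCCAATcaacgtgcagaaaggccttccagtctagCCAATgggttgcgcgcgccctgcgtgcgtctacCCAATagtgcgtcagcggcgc
Mki67: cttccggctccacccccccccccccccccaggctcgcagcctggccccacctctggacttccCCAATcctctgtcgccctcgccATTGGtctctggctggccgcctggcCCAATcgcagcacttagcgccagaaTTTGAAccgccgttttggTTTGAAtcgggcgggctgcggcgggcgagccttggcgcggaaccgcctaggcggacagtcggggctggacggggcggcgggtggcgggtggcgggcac
Top2a: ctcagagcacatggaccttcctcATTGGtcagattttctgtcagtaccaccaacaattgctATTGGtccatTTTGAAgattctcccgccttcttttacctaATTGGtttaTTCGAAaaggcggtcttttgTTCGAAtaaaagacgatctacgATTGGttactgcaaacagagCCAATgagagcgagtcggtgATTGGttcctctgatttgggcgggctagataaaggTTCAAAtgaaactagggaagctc
Dtl: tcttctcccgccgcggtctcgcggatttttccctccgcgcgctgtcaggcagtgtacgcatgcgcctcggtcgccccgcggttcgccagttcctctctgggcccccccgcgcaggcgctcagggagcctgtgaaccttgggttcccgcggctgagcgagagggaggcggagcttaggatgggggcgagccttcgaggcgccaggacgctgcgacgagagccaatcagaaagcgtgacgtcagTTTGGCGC
Mcm6: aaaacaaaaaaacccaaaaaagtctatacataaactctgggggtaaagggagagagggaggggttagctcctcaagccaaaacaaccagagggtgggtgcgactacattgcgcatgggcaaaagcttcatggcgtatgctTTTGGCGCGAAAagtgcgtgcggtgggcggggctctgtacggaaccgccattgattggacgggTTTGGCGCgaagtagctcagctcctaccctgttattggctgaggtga

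In the GRCm38.p6 table of RefSeq these stretches are Ccnb2 at chr9:70421555-70421804 on the minus strand, Mki67 at chr7:135716380-135716629 on the minus strand, Top2a at chr11:99024190-99024439 on the minus strand, Dtl at chr1:191575545-191575794 on the minus strand and Mcm6 at chr1:128359706-128359955 on the minus strand. Both CHR and CCAAT box were present in 12 of 35 (34.3%) of the mitotic promoters in the table and in 971 of 16990 (5.72%) of the promoters of all genes tested. A CHR, with or without a CCAAT box, was found in 13 of 35 (37.1%) mitotic promoters against 2647 of 16990 (15.6%). An E2F site was found in 9 of 35 (25.7%) replication promoters against 358 of 16990 (2.11%). In Mcm6 the E2F matches begin at 110, 106 and 47 bases before the start, and those at 110 and 106 overlap on opposite strands. The E-box CACGTG, the letters that Myc with Max binds, was found in 3 of 44 (6.82%) ribosome biogenesis promoters against 1165 of 16990 (6.86%). These are matches of letters in a fixed window and no test was made.

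Regulators of the G1 phase rose on balance, on both sides of the brake. Of 31 measured genes 19 rose and 4 fell (median 0.65). The E2F genes E2f8, a repressor, and E2f3, an activator, rose by 2.69 and 2.39, the cyclin gene Ccnd1 by 2.06 and the CDK4/6 inhibitor Cdkn2c by 2.60. The CDK inhibitor Cdkn1c measured 9.04, 9.20, 9.25, 9.33 and 9.18 in carcinomas 1 to 5 and 10.46, 10.39, 10.40, 10.30 and 10.34 in normal arrays 1 to 5 and fell by 1.18 on the log2 scale (SE 0.09, limma adjusted p = 6.09e-08). Cdkn1a, the CDK inhibitor best known as a p53 target, measured 9.22, 9.56, 9.91, 9.80 and 10.80 in carcinomas 1 to 5 and 11.01, 10.58, 10.56, 10.59 and 10.56 in normal arrays 1 to 5. Carcinoma 5 lay within the normal range and the other carcinomas below it, and Cdkn1a fell by 0.80 on the log2 scale (SE 0.21, limma adjusted p = 0.00571). Other p53 target genes split. Of 36, 14 rose and 12 fell (median 0.10), among them the spindle genes Ckap2 (up 2.63) and Psrc1 (up 1.78), the growth suppressor Btg2 (up 1.38) and Pidd1 (up 1.35) on one side, and the kinase Plk2 (-1.79) and the lipid transfer protein Pltp (-2.0) on the other. In the Bcl2 family of apoptosis regulators, 5 of 15 genes rose and 4 fell. The pro-death members Bcl2l11 (up 1.12), Bbc3 (up 1.11) and Bid (up 1.08) were higher, and Bad (-0.79) and the survival gene Bcl2 (-1.86) were lower.

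Genes that make ribosomes and proteins rose nearly as a block. Ribosome biogenesis genes rose in 44 of 48 cases (median 1.12), led by the RNA polymerase I subunit Polr1b (up 1.99) and the nucleolar genes Gnl3 (up 1.96), Nop2 (up 1.82) and Noc2l (up 1.74). The exception past the threshold was Polr1a, the largest RNA polymerase I subunit (-0.50). Cytosolic ribosomal protein genes rose in 39 of 44 cases (median 0.78), among them Rplp0 (up 1.77) and Rpsa (up 1.63). Many of these genes have near-identical processed copies that a probe set may not separate. Of 55 mitochondrial ribosomal protein genes 33 rose and 3 fell (median 0.37), with Mrps27 first (up 1.74). Each of the 18 measured aminoacyl-tRNA synthetases rose (median 0.59), by 1.35 for the valine enzyme Vars and 1.29 for Eprs. Translation factors rose in 23 of 30 cases (median 0.64), with the translation repressor Eif4ebp1 first (up 1.78). The helicase gene Eif4a2 fell (-0.61), but it has 3 probe sets that disagree, and their mean gave 0.72 (adjusted p = 0.00035), the opposite direction. Chaperones rose in 14 of 26 cases (median 0.34), among them the mitochondrial chaperonin Hspd1 (up 1.22) and the chaperonin subunits Cct3 (up 0.94) and Cct5 (up 0.85). The ribosome biogenesis mean was 10.45 to 10.65 in the carcinomas against 9.42 to 9.50 in normal tissue. The mean of the mitochondrial ribosomal proteins ranged more widely for its size of change, 9.75 to 10.14 in the carcinomas against 9.51 to 9.74.

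Nucleotide and one-carbon metabolism rose with them. Purine and pyrimidine enzymes rose in 20 of 23 cases (median 1.09), from the ribonucleotide reductase subunit Rrm2 (up 2.42) and the uridine kinase Uck2 (up 1.95) to Gart, which catalyses several steps of purine synthesis (up 1.71). The salvage enzyme Hprt fell (-0.61). Among 22 serine, glycine and folate enzymes 12 rose and 4 fell (median 0.48). The serine hydroxymethyltransferases Shmt1 and Shmt2 rose by 3.35 and 2.28, and the mitochondrial folate enzymes Aldh1l2 and Mthfd2 by 1.99 and 1.93. The cytosolic relative of Aldh1l2, Aldh1l1, fell from 10.88 ± 0.08 to 9.20 ± 0.64 (mean ± SD, n = 5 each). The spermidine synthase Srm rose by 2.13 while 4 of the other 8 polyamine genes fell, with the antizyme Oaz2 lowest (-0.94).

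Energy metabolism did not follow one direction. Of 30 glycolysis and hypoxia-response genes 18 rose and 2 fell (median 0.43). Egln3, a prolyl hydroxylase that senses oxygen and is itself induced by hypoxia, measured 11.42, 11.86, 10.86, 12.71 and 13.36 in carcinomas 1 to 5 and 7.74, 7.06, 7.04, 6.38 and 6.93 in normal arrays 1 to 5. The groups stood more than 3 apart at their closest arrays, and Egln3 rose by 5.01 (SE 0.37, limma adjusted p = 3.34e-08). The vasodilator peptide gene Adm, the stress gene Ndrg1 and the hexokinase Hk2 rose by 2.84, 2.35 and 2.03, and the neuronal enolase Eno2 fell by 1.10 on the log2 scale. The mean of this list stood apart in carcinoma 5, at 11.42 against 10.70 to 10.80 in the other carcinomas. Respiratory chain and ATP synthase genes showed 4 rises and 10 falls among 46, with a median of -0.01. The complex I genes Ndufa1 (-0.93) and Ndufb8 (-0.63) and the complex IV gene Cox4i1 (-0.55) fell. Of 19 cholesterol synthesis genes 6 went up and 6 down. The last enzyme of the pathway, Dhcr7 (up 1.19), and the regulator Insig1 (up 0.78) were higher and the methylsterol oxidase Msmo1 (-1.0) lower. Of 20 fatty acid genes 6 rose and 6 fell, with the synthesis genes Fasn (up 1.05) and Acaca (up 0.63) higher and the elongase Elovl5 lower (-0.91). Glutathione and xenobiotic genes divided into 9 rises and 10 falls of 31. The methyltransferase Inmt (-4.15), the extracellular superoxide dismutase Sod3 (-2.70), the cystine carrier Slc7a11 (-2.47) and the cytochrome Cyp2d22 (-2.02) fell, whereas the secreted peroxidase Gpx3 rose by 2.46 (SE 0.48, limma adjusted p = 0.000599).

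Car9 and Pfkfb3 rose most among the glycolysis and hypoxia genes whose 250 bases before the start hold ACGTGC, the core of the hypoxia response element, on either strand. Their promoters are shown with the match in capitals. Car9, a cell-surface carbonic anhydrase, rose by 1.76 (adjusted p = 0.00605) and Pfkfb3, which makes the allosteric activator of phosphofructokinase, rose by 1.49 (adjusted p = 0.000677).
Car9: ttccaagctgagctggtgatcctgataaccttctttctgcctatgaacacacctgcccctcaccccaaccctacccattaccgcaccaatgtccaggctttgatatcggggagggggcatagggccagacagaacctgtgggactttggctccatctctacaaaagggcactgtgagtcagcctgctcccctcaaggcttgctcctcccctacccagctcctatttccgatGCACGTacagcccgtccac
Pfkfb3: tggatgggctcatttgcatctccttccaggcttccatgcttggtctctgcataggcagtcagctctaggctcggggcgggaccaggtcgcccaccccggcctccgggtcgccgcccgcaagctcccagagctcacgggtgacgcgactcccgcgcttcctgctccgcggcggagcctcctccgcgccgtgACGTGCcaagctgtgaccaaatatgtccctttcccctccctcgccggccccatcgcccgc

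The stretches are Car9 at chr4:43506776-43507025 on the plus strand and Pfkfb3 at chr2:11553930-11554179 on the minus strand. The letters were found in 11 of 28 (39.3%) promoters of the list in the table against 924 of 16990 (5.44%) of all genes tested. They can overlap an E-box where they read CACGTGC.

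The secretory epithelium kept its defining transcripts at lower levels. Of 26 measured genes for ion and water transport into cerebrospinal fluid, 16 fell and 1 rose (median -0.57). The potassium chloride cotransporter Slc12a4 (-1.76), the carbonic anhydrase Car2 (-1.74), the anion exchanger Slc4a2 (-1.22) and the sodium pump regulator Fxyd1 (-1.09) fell most, and the potassium channel Kcnq1 was the gene that rose (up 0.34). Car2 measured 12.19, 9.68, 12.42, 12.57 and 12.43 in carcinomas 1 to 5 and 13.61, 13.61, 13.61, 13.57 and 13.57 in normal arrays 1 to 5. Carcinoma 2 was far below the others, and all 5 carcinomas lay below the normal arrays. Of 36 secreted and surface products 26 fell and 2 rose (median -0.71). The zinc transporter Slc39a12 (-2.74), the heparan sulfatase Sulf1 (-2.55), the lipocalin Apod (-2.38) and the lipopolysaccharide-binding protein Lbp (-1.78) led the falls. The rises were the protease inhibitor gene Wfikkn2 (up 1.65) and the vascular growth factor Vegfa (up 0.81). Among the marker genes of this epithelium 6 of 11 fell (median -0.51), including the serotonin receptor Htr2c (-1.66), the folate receptor Folr1 (-1.19) and klotho (Kl, -0.66).

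Solute carriers of the barrier mostly fell, and amino acid carriers moved in opposite directions. Of 46 genes 26 fell and 10 rose (median -0.39). Slc7a10, a carrier of small neutral amino acids, measured 7.72, 7.18, 7.70, 7.31 and 6.98 in carcinomas 1 to 5 and 12.06, 12.07, 12.23, 12.11 and 11.98 in normal arrays 1 to 5. The groups were more than 4 apart and Slc7a10 fell by 4.71 on the log2 scale (SE 0.12, limma adjusted p = 1.46e-12). Slc35f1 (-3.04), the organic cation extruder Slc47a1 (-2.70) and the organic anion transporter Slc22a8 (-2.70) followed. Against them the glutamine carrier Slc1a5 rose by 2.35 and its relative Slc1a4 by 1.85. Slc1a5 measured 10.89, 11.48, 10.88, 9.95 and 10.96 in carcinomas 1 to 5 and 8.57, 8.29, 8.60, 8.48 and 8.47 in normal arrays 1 to 5, with no overlap. Of 39 junction genes 17 were called lower and 8 higher (median -0.28). The desmosomal plaque gene Dsp measured 6.78, 7.40, 6.71, 7.04 and 6.42 in carcinomas 1 to 5 and 10.40, 10.63, 10.70, 10.88 and 10.82 in normal arrays 1 to 5 and fell by 3.81 on the log2 scale (SE 0.15, limma adjusted p = 4.24e-11), with every carcinoma more than 2 below every normal array. Cldn11 (-2.40), the scaffold Tjp3 (-2.14) and Jam2 (-1.91) fell too, while N-cadherin (Cdh2) rose by 1.56 and the gap junction gene Gja1 by 1.85. Slc47a1 is also on the meningeal marker list below and Cldn11 on the oligodendrocyte list, so their falls may not belong to the epithelium. Of 15 intermediate filament genes 5 rose and 2 fell, the rises including vimentin (Vim, up 0.92), nestin (Nes, up 0.84) and the nuclear lamin Lmnb1 (up 0.95).

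The motile cilium was reduced across its parts. Of 27 measured dynein arm genes 23 fell (median -1.44) and of 44 genes of the radial spokes, central pair and nexin links 35 fell (median -1.68). The light intermediate chain Dnali1 (-3.70), the light chain Dynlrb2 (-3.54) and the heavy chains Dnah6 (-3.85) and Dnah11 (-3.07) led the first list. The radial spoke head gene Rsph4a led the second. It measured 7.34, 6.35, 8.22, 6.79 and 6.55 in carcinomas 1 to 5 and 11.65, 11.44, 11.56, 11.73 and 11.41 in normal arrays 1 to 5, and the groups did not overlap (fell by 4.51 on the log2 scale, SE 0.26, limma adjusted p = 2.3e-09). Drc7 of the nexin-dynein complex (-4.34) and the ciliary adenylate kinase Ak7 (-4.24) followed it. Intraflagellar transport and the transition zone, which cilia of all kinds use, fell in 34 of 44 cases with a smaller median of -0.67, led by the transition zone genes Rpgrip1l (-1.74) and Tctn2 (-1.63) and the BBSome genes Bbs5 (-1.57) and Bbs1 (-1.56). Between tumours the spoke list ran from 7.20 in carcinoma 2 to 7.90 in carcinoma 3, against 9.25 to 9.51 in normal tissue.

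Genes that start multiciliation and multiply centrioles moved in both directions, unlike those of the axoneme. Of 34, 13 rose and 10 fell (median 0.17). Deup1, which builds the deuterosomes on which centrioles multiply, measured 10.64, 10.17, 10.39, 11.35 and 10.76 in carcinomas 1 to 5 and 7.62, 7.01, 6.88, 7.53 and 7.14 in normal arrays 1 to 5. All carcinomas lay above all normal arrays and Deup1 rose by 3.42 (SE 0.27, limma adjusted p = 7.52e-08). The centriole duplication gene Stil (up 2.46), the transcription factor Myb (up 2.15) and the centrosomal kinase Nek2 (up 1.85) also rose; the last 3 are also used by dividing cells. Foxj1, the transcription factor that turns on motile cilium genes, measured 9.60, 7.96, 10.81, 10.42 and 10.64 in carcinomas 1 to 5 and 11.54, 11.48, 11.30, 11.34 and 11.34 in normal arrays 1 to 5. Carcinoma 2 had the lowest Foxj1 and the lowest spoke mean, and over the group Foxj1 fell by 1.51 on the log2 scale (SE 0.38, limma adjusted p = 0.00498). The cap protein Ccp110, whose removal lets a cilium grow, fell by 1.40 on the log2 scale.

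An X-box, the motif that RFX factors bind, was found on either strand in 13 of 100 (13%) promoters of the dynein, spoke and transport lists together and in 330 of 16990 (1.94%) of all genes tested. Shown are the 250 bases before the start of the genes holding it that fell most, Cfap44 (-3.29, adjusted p = 2.27e-08) and the central pair gene Spag16 (-3.23, adjusted p = 3.7e-08), with the X-box in capitals.
Cfap44: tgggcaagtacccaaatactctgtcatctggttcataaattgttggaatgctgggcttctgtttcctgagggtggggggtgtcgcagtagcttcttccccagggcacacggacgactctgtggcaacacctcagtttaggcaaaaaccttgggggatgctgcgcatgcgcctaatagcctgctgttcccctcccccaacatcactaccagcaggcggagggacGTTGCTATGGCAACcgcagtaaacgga
Spag16: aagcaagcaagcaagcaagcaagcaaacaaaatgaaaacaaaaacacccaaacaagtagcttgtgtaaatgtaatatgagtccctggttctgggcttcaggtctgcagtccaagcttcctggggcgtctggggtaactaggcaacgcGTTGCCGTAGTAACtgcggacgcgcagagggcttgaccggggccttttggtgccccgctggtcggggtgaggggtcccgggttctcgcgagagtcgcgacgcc

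These lie at chr16:44394549-44394798 on the plus strand for Cfap44 and chr1:69826720-69826969 on the plus strand for Spag16.

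**Figure D2:**
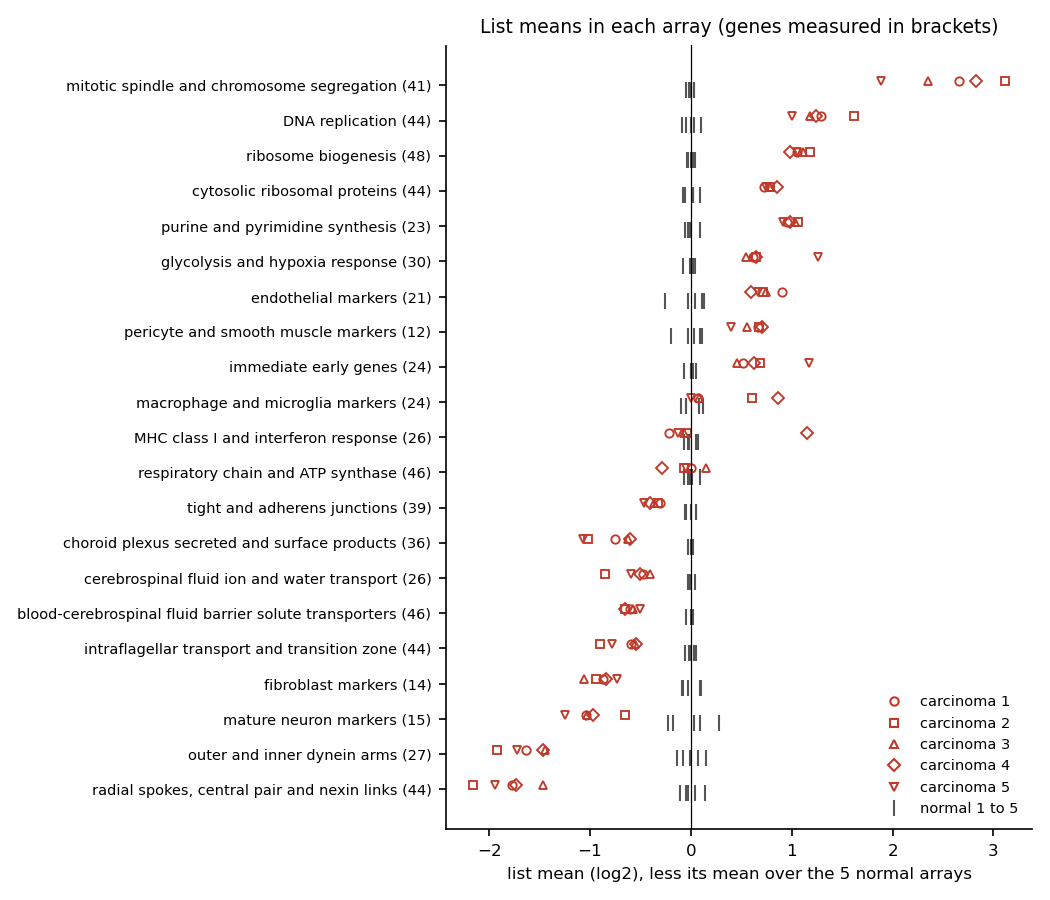
Mean log2 value over the genes of each list in each array, less its mean over the 5 normal arrays; open symbols are the 5 carcinomas and dark bars the 5 normal arrays. In this plot the mitotic list sits furthest to the right and the spoke list furthest to the left, and carcinoma 4 stands alone on the interferon list and carcinoma 5 on the hypoxia list.

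Position and lineage genes changed in a few members. Of 33 roof plate and choroid plexus transcription factors and signals 10 fell and 3 rose (median -0.19). Mab21l1, a gene of eye and neural development, measured 11.67, 12.28, 11.34, 10.78 and 10.95 in carcinomas 1 to 5 and 7.16, 6.41, 6.52, 6.50 and 6.85 in normal arrays 1 to 5. The closest arrays of the groups were more than 3 apart, and the rise was 4.71 (SE 0.47, limma adjusted p = 8.26e-07). The roof plate signal Gdf7 (-2.51) and the hindbrain genes Hoxa2 (-1.34) and En2 (-1.16) fell. Neural progenitor genes gave 4 rises and 6 falls of 36, and the falls numbered 3 without normal array 1 or without carcinoma 1. The progenitor surface gene Prom1 (up 1.65) and Sox4 (up 2.02) rose, and Hes6 (-0.65) and Hes1 (-0.59) fell. In the oncofetal and imprinted list 5 of 21 rose and 4 fell. Glypican 3 (Gpc3), a surface proteoglycan of fetal growth, measured 9.19, 11.75, 9.52, 12.10 and 8.36 in carcinomas 1 to 5 and 8.15, 8.08, 8.16, 8.07 and 8.24 in normal arrays 1 to 5. Carcinomas 2 and 4 were more than 3 above normal tissue and carcinoma 5 barely above it (mean rise 2.04, SE 0.54, limma adjusted p = 0.00627). The imprinted genes Grb10 (up 1.40) and Plagl1 (up 1.16) rose, and the growth factor Igf2 (-1.61) and Nnat (-1.45) fell. Of 26 Polycomb and DNA methylation genes 11 rose and 3 fell (median 0.21). Among the rises were genes that dividing cells use, such as the helicase Hells (up 1.63), Uhrf1 (up 1.33), the methyltransferase Ezh2 (up 1.04) and the maintenance methyltransferase Dnmt1 (up 0.81), while the Polycomb reader Cbx7 fell by 0.95 on the log2 scale. In the Myc network 8 of 13 genes rose, with the relative Mycl first (up 1.83), ahead of the glucose-responsive partner Mlxip (up 0.88) and Myc.

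Signalling genes moved in both directions. In the Notch, Hedgehog, Wnt and BMP list 22 of 55 fell and 11 rose (median -0.12). The BMP antagonist Chrdl1, the leading gene among the control lists, measured 10.94, 10.36, 9.91, 11.23 and 10.47 in carcinomas 1 to 5 and 6.37, 6.34, 6.08, 6.51 and 6.19 in normal arrays 1 to 5, with the groups more than 3 apart, and rose by 4.29 (SE 0.22, limma adjusted p = 5.83e-10). The ligand Bmp6 measured 11.06, 9.0, 11, 8.27 and 8.78 in carcinomas 1 to 5 and 12.47, 12.52, 12.63, 12.49 and 12.62 in normal arrays 1 to 5. Carcinomas 1 and 3 were near 11 and the others near 8 to 9, all below the normal arrays, and Bmp6 fell by 2.92 on the log2 scale (SE 0.46, limma adjusted p = 8.41e-05). The ligand Bmp5 (-1.66), the Wnt enhancer Rspo3 (-1.46) and the Hedgehog co-receptor Boc (-1.33) fell, and the Wnt modulator Sfrp2 rose by 1.84. Receptor tyrosine kinases and their ligands divided evenly, 11 up and 11 down of 41. The stem cell factor receptor Kit (up 2.36), the ephrin receptor Epha7 (up 1.50), neuregulin (Nrg1, up 1.38) and ephrin B2 (Efnb2, up 1.10) were higher, and the neurotrophin receptor Ntrk2 (-1.64) and Fgf2 (-1.22) lower. Immediate early genes rose in 9 of 24 cases (median 0.45; 14 in a fit without the papilloma arrays), among them the matricellular gene Ccn1 (up 2.43) and the stress transcription factor genes Atf3 (up 2.0) and Jun (up 1.86). How long each tissue lay before freezing is not given. Of 18 clock genes 7 fell and 3 rose (median -0.37). The activator Arntl rose (1.15) and its output gene Dbp (-0.99) and the partner genes Npas2 (-1.53) and Clock (-0.59) fell, in tissue whose hour of collection is not stated.

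Markers of vessels, mural cells and fibroblasts moved in different directions. Endothelial markers rose in 13 of 21 cases (median 0.66), led by the peptide Apln (up 3.08) and the tip cell gene Esm1 (up 2.39), with the receptor Aplnr and the fenestral diaphragm gene Plvap each up by 1.24. Of 12 pericyte and smooth muscle markers 8 rose and 2 fell (median 0.44). Smooth muscle actin (Acta2) measured 12.62, 12.43, 12.89, 13.11 and 11.95 in carcinomas 1 to 5 and 10.21, 9.09, 9.92, 9.78 and 10.43 in normal arrays 1 to 5 and rose by 2.72 (SE 0.26, limma adjusted p = 5.2e-07), without overlap. Tagln (up 1.38) and calponin (Cnn1, up 1.37) accompanied it, while Vtn fell (-1.17). Fibroblast markers went down in 9 of 14 cases (median -0.58), among them the proteoglycans Lum (-3.57) and Dcn (-2.54) and the binding protein Igfbp5 (-2.24), although the collagen Col3a1 rose (0.79). Of 21 collagen genes 5 rose and 3 fell. Col14a1 rose by 2.25, and the short-chain collagen Col8a2, the leading gene of the matrix lists, fell from 9.94, 9.78, 9.96, 9.82 and 9.93 in normal arrays 1 to 5 to 7.46, 7.24, 8.42, 7.63 and 6.84 in carcinomas 1 to 5 (-2.37, SE 0.20, limma adjusted p = 1.13e-07). Basement membrane and integrin genes divided into 10 rises and 11 falls of 39. The heparan sulfate proteoglycan Agrn (up 1.52) and the protease inhibitor Timp1 (up 1.47) rose and the integrin Itgb8 (-1.51) and laminin Lamb1 (-1.47) fell.

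Immune gene lists differed in how many members passed, where 18.7% of all genes were higher and 19.2% lower. The class I and interferon counts were near these shares, and the macrophage and chemokine counts were under them. Of 24 macrophage and microglia markers 2 rose and 1 fell (median 0.14). Gpnmb, a glycoprotein of lysosomes in macrophages and of melanocytes, measured 13.41, 13.50, 12.45, 11.49 and 13.61 in carcinomas 1 to 5 and 7.96, 8.37, 8.51, 7.96 and 8.19 in normal arrays 1 to 5, with the groups about 3 apart, and rose by 4.70 (SE 0.35, limma adjusted p = 3.97e-08). The lysosomal marker Cd68 rose by 1.47, and the microglial gene Tmem119 fell by 0.35 on the log2 scale. The remaining 21 markers of the list did not pass, and without carcinoma 5 the count that rose was 4. Of 15 lymphocyte markers 12 were below the median of each of the 10 arrays, and so were 8 of 10 neutrophil and mast cell markers. Of 16 class II and complement genes 6 fell and 2 rose (median -0.12). The antigen-presenting genes H2-Ab1 (-2.20) and H2-Aa (-1.59) fell, as did the complement regulator Serping1 (-1.81), while the complement gene C4b rose by 1.62. Of 26 class I and interferon-response genes 5 rose and 4 fell (median 0.24). The class I gene H2-K1 rose (0.97) and so did its activator Nlrc5 (1.04), whereas the interferon-induced tetherin Bst2 fell by 1.03 on the log2 scale. Among 30 chemokine genes 4 rose and 4 fell, with Ccl3 up by 1.57. Ccl9, the leading gene of the immune lists, measured 8.85, 8.42, 9.43, 9.01 and 9.09 in carcinomas 1 to 5 and 12.04, 12.28, 12.05, 11.76 and 12.17 in normal arrays 1 to 5. It was bright in each normal array and lower in each carcinoma (-3.10, SE 0.18, limma adjusted p = 2.96e-09).

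Transcripts of neighbouring tissues were higher in the normal samples. Of 15 mature neuron markers 9 fell (median -0.91; list mean 8.01 to 8.51 in normal arrays and 6.99 to 7.59 in carcinomas). Of 11 oligodendrocyte markers 8 fell (median -0.47; 7.86 to 8.17 against 7.06 to 7.53), and of 15 meningeal markers 8 fell and 2 rose (median -0.47; 9.12 to 9.45 against 8.42 to 8.78). The neuron count dropped to 3 without normal array 2, to 4 without carcinoma 5 and to 5 without normal array 1, carcinoma 1 or carcinoma 3, and the oligodendrocyte count to 5 without normal array 2 or normal array 4. Pituitary hormone genes held some of the larger differences. Growth hormone (Gh) measured 7.17, 6.52, 6.70, 7.01 and 6.90 in carcinomas 1 to 5 and 9.66, 9.93, 9.84, 10.33 and 10.36 in normal arrays 1 to 5, the luteinizing hormone subunit Lhb 6.79, 6.62, 6.77, 7.06 and 6.72 in carcinomas 1 to 5 and 10.08, 9.76, 9.64, 9.92 and 9.83 in normal arrays 1 to 5, and prolactin (Prl) 5.38, 5.45, 5.34, 5.42 and 5.34 in carcinomas 1 to 5 and 6.48, 7.48, 10.75, 8.03 and 11.57 in normal arrays 1 to 5. Gh and Lhb were even across the normal arrays and Prl varied by more than 5 between them, and no carcinoma reached the normal range of any of the 3. Of 10 astrocyte markers 2 rose and 1 fell. Ependymal and multiciliated cell markers fell in 8 of 10 cases (median -1.30; 9.31 to 9.59 in normal arrays and 7.49 to 8.33 in carcinomas). Foxj1 and Dynlrb2, given above with the cilium, are on that list too. These lists moved with the same group difference as the falls described above, and their part in those falls was not tested. For the epithelium itself, Ttr and the epithelial marker mean were high in all 10 arrays.

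**Figure D3:**
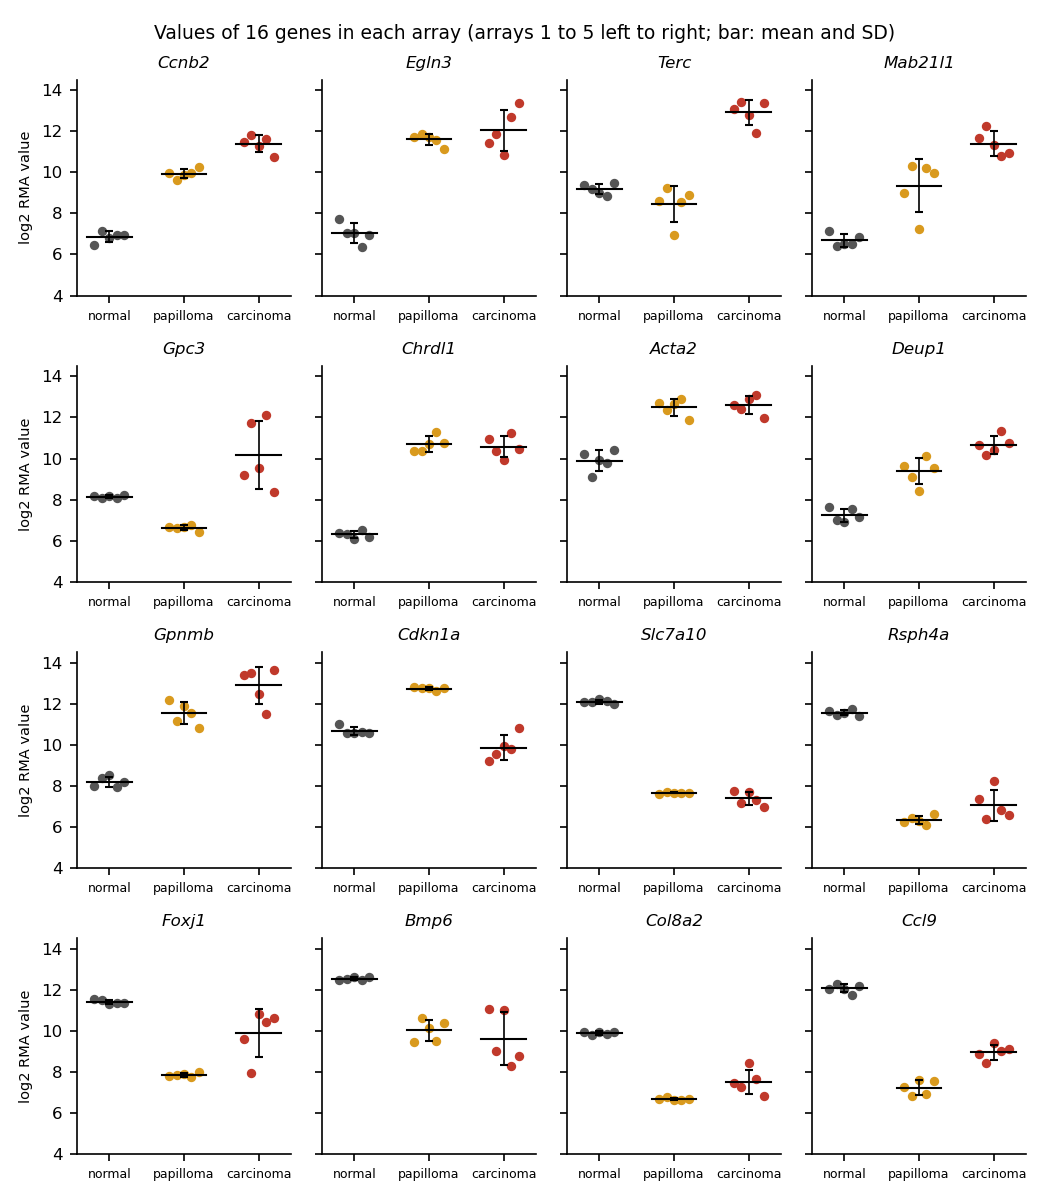
Log2 RMA values of 16 genes in each of the 5 normal, 5 papilloma and 5 carcinoma arrays, with the group mean and SD. Ccnb2, Egln3 and Chrdl1 are high in every tumour and Slc7a10 and Rsph4a low in every tumour, while Terc is high and Cdkn1a low in the carcinomas against the papillomas.

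The carcinomas were not alike. Class I and interferon-response genes had a mean of 7.89, 8.07, 8.03, 9.26 and 7.98 in carcinomas 1 to 5 and 8.04 to 8.17 in normal tissue. Carcinoma 4 stood more than 1 above every other array, the other 4 carcinomas lay at or below the upper end of normal tissue, and the group difference of this list combines these unlike tumours. The macrophage list had a mean of 7.77, 8.31, 7.78, 8.57 and 7.71 and 7.61 to 7.82 in the same order, so that carcinomas 2 and 4 were above the rest. Carcinoma 5 had the highest mean of the hypoxia list and of the immediate early list, 9.55 against 8.83 to 9.06, and the lowest mitotic mean. The immediate early transcription factor gene Egr1 passed the threshold (up 1.60) but not without carcinoma 5 (1.37, adjusted p = 0.051). The haem-degrading enzyme Hmox1 (up 1.30) lost its call without carcinoma 2, carcinoma 5 or normal array 4 (0.91 to 1.24, adjusted p = 0.0539 to 0.0721).

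The genes with the largest SD among carcinomas showed which tumour differed. The pigment transport gene Oca2 measured 9.96, 6.79, 10.91, 6.73 and 11.56 in carcinomas 1 to 5 and 11.52, 11.69, 11.72, 11.52 and 11.60 in normal arrays 1 to 5, so it was near normal in carcinomas 3 and 5 and below 7 in carcinomas 2 and 4. Bpifb1, a secreted lipid-binding protein of airway epithelium, was at 11.35 in carcinoma 5 and 6.09 to 6.90 in the others, and the developmental cofactor Eya2 at 11.93 in carcinoma 5 and 7.17 to 9.18 in the others. The opioid peptide gene Penk measured 7.68, 8.71, 9.34, 6.69 and 11.82, highest in the same tumour. The keratin Krt23 measured 11.49, 11.42, 9.71, 8.46 and 6.58 in carcinomas 1 to 5 and 6.31 to 7.46 in normal tissue. Carcinomas 1 and 2 were highest and carcinoma 5 was within the normal range. The tetraspanin Tspan10 was at 11.46, 11.46, 10.06, 6.95 and 11.40, near normal (6.72 to 7.20) in carcinoma 4 alone. Rnase1 gave 9.62, 9.67, 8.17, 4.93 and 6.83 (4.03 to 4.63 in normal tissue) and the matrix glycoprotein Thbs4 9.67, 11.61, 7.09, 6.53 and 9.49, both lowest in carcinoma 4.

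Chromosome-wide levels differed between tumours as well. For each array the median deviation of a chromosome's genes from the mean of the normal arrays was taken, less the same median over all autosomal genes. This normal mean was not taken anew for the splits of the permutation test, so normal arrays lie near 0 by construction. Exact here means that every split was counted, and the p-values are approximate. Chromosome 12 was lower in the carcinomas, by a log2 difference of -0.12 (exact two-sided permutation p = 0.00794, the smallest the exact test can give with 5 arrays a group; adjusted p = 0.0397 over 20 chromosomes), with -0.14, -0.15, -0.24, -0.03 and -0.04 in carcinomas 1 to 5. Chromosome 8 gave -0.13, -0.03, -0.07, -0.24 and 0.01 and chromosome 19 -0.10, -0.10, -0.01, 0.04 and -0.19, with group differences of -0.09 (exact permutation adjusted p = 0.132) and -0.07 (exact permutation adjusted p = 0.363). The low chromosomes were not the same in each tumour, as carcinoma 3 was lowest on chromosome 12, carcinoma 4 on chromosome 8 and carcinoma 5 on chromosome 19. Chromosome 15, which holds Myc, was higher by 0.04, and chromosomes 4 and 7 by 0.02 each (exact permutation adjusted p = 0.0397 for each of the 3). Single tumours stood out on chromosome 16 (carcinoma 2, -0.11), chromosome 13 (carcinoma 4, -0.09) and chromosome 6 (carcinoma 5, 0.08). On chromosome 12, 28.7% of genes were called lower and 11.2% higher, and on chromosome 8 28.2% and 10.8%, against 19.2% and 18.7% over all genes. Chromosome 8 passed without carcinoma 5 (-0.12, exact permutation adjusted p = 0.0265) and chromosome 19 without carcinoma 4 (-0.10, exact permutation adjusted p = 0.0317). In each case the carcinoma left out was the only one not below every normal array, so the smallest possible p was bound to follow. Without any other single carcinoma neither passed (exact permutation adjusted p = 0.0992 to 0.132 for chromosome 8 and 0.218 to 0.564 for chromosome 19). The calls of chromosomes 4, 7, 12 and 15 ended when genes that differed between carcinoma and papilloma were left out. Those genes were picked with the same carcinoma values, so leaving them out tends to shrink such levels in any case. No conclusion is drawn from this loss.

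**Figure D4:**
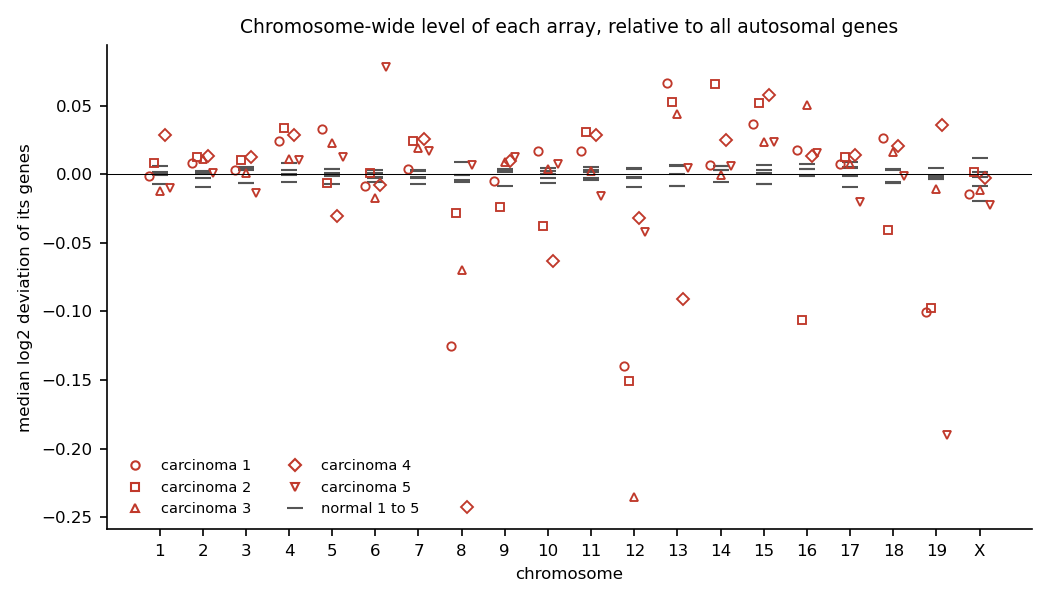
Chromosome-wide level of each carcinoma (open symbols) and each normal array (dark bars), as the median log2 deviation of the chromosome's genes from the normal mean less that of all autosomal genes. Normal arrays, whose mean set the baseline, stay near 0, carcinoma 4 reaches -0.24 on chromosome 8 and carcinoma 3 reaches -0.24 on chromosome 12.

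Some of these changes were larger in carcinoma than in papilloma, and others were smaller or of the opposite sign. In the limma fit 11.4% of genes passed between carcinoma and papilloma, 1383 (6.24%) higher and 1147 (5.17%) lower in carcinoma, or 1329 genes in a fit without the normal arrays. Of all genes tested, 1825 passed both this comparison and carcinoma against normal, which share the carcinoma arrays, 1531 with the same sign in both and 294 with opposite signs. Mitotic genes were higher than in papilloma in 38 of 41 cases (median 1.49) and replication genes in 27 of 44 (median 0.52). Of 48 ribosome biogenesis genes 2 were higher and 1 lower (median 0.03). Multiciliation and centriole genes were higher in 17 of 34 cases (median 0.27), including Foxj1 (2.03, SE 0.38, limma adjusted p = 0.00281) and Deup1 (1.29), while of 27 dynein arm genes 3 were higher and 1 lower (median 0.04). The p53 target genes were lower in 16 of 36 cases and higher in 4 (median -0.27). Carcinomas and papillomas differ in their floxed p53 alleles as well as in tumour type, and the cause of this difference was not tested.

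Among genes past both tests, Terc was furthest above papilloma. The papilloma arrays measured 8.59, 9.22, 6.95, 8.57 and 8.89 and the difference was 4.48, SE 0.36, limma adjusted p = 2.52e-06. Gpc3 (3.56), Krt23 (3.41), the sialic acid pathway enzyme Renbp (3.03), the matrix protein nephronectin (Npnt, 2.94), the kinase Stk32a (2.83), Tspan10 (2.76, with a limma adjusted p of 0.0561 in the fit without normal arrays) and the glutamine transporter Slc38a3 (2.68) followed. These genes stood differently against normal tissue. Npnt was higher than normal by 1.23, whereas Stk32a and Slc38a3 were lower (log2 changes -1.85 and -0.70). Furthest below papilloma were the membrane protein Ano3 (-4.01), the cilium gene Hoatz (-3.17), Sbspon (-3.0), Cdkn1a (-2.87), the synaptic gene Erc2 (-2.65), the glial adhesion gene Hepacam (-2.61), the leukotriene receptor Cysltr1 (-2.36) and Dglucy (-2.29). Hoatz measured 10.26, 10.34, 10.20, 10.63 and 10.10 in normal arrays 1 to 5, 9.41, 10.04, 9.71, 9.29 and 10.23 in papillomas 1 to 5 and 6.52, 5.25, 7.84, 7.43 and 5.76 in carcinomas 1 to 5. It fell in carcinoma (-3.74), and papillomas stood close to normal tissue. Cdkn1a was at 12.80, 12.74, 12.74, 12.62 and 12.73 in papillomas 1 to 5, above every normal and every carcinoma array. The calls against normal tissue of Renbp (up 0.92) and Erc2 (up 1.08) each ended when any 1 of several arrays was left out. That of Renbp ended without normal array 2, 4 or 5 or carcinoma 1, 2 or 4 (0.67 to 0.93, adjusted p = 0.0505 to 0.096). That of Erc2 ended without normal array 1, 2, 4 or 5, without carcinoma 2, 3 or 4, or without the papilloma arrays (0.72 to 1.10, adjusted p = 0.0531 to 0.0868).

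**Figure D5:**
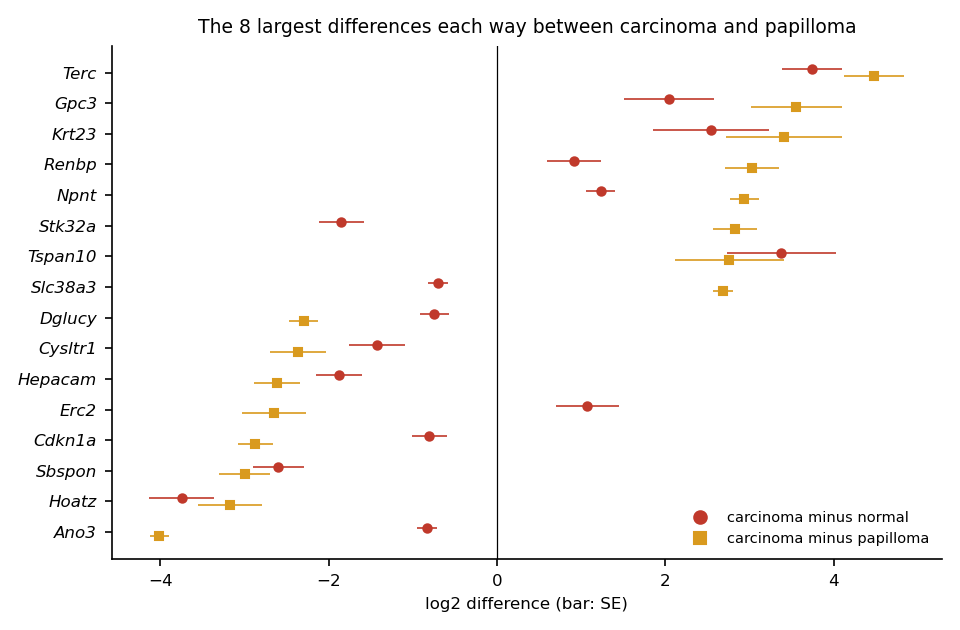
Log2 difference with its SE of carcinoma against normal tissue (circles) and against papilloma (squares) for the 8 genes furthest in each direction from papilloma among genes past both tests. Terc is far to the right in both comparisons, and Stk32a and Slc38a3 are above papilloma but below normal tissue.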

How the data were processed

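Total RNA was labelled and hybridised to Affymetrix arrays, 1 array a sample, and the precision rests on the number of arrays. The deposited values are log2 intensities made by RMA in Affymetrix Expression Console, per the submitters' processing notes. Of 41345 probe sets 23521 had exactly 1 gene symbol in the platform annotation, 1814 several and 16010 none. Each gene was read from its brightest probe set by mean over all arrays, which left 22180 genes. Groups were compared with limma 3.58.1 in R 4.3.3, in 1 model over all 15 arrays (12 residual degrees of freedom, plus 3.35 from moderation), with Benjamini-Hochberg adjustment over all genes and a threshold of 0.05. The fit was checked on simulated data in which few genes changed and the groups had equal spread. It was not checked for change as wide, or spread as unequal, as in these arrays. The replicate numbers of the titles did not pair the arrays. The correlation of deviations of same-numbered arrays was -0.01 to 0.09, so no block was used.

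The comparison, its gene lists and tests were chosen with earlier results of these data known. Genes are named by rank among non-overlapping changes (9 to 20 each way), by size of change within each list (up to 4 in the leading direction and 2 in the other), by SD among carcinomas (8) and by difference from papilloma (8 each way). Genes named only for a crossing between dim and bright, for a promoter shown or, as Ttr, as a marker are added to that rule. Promoter sequence is RefSeq's, build GRCm38.p6. Motif matches were counted in the 250 bases before the start.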

Additional observations from a re-analysis of the deposited data

Results flagged for a closer look

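In 30 of the 624 groups of 5 arrays checked, the highest or lowest array stood off by more than 0.710 of the whole range of the group, Dixon's 95% value. Chance flags about 1 group in 20, so a number of this size carries no pattern by itself. No explanation was tested for any of them.

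Carcinoma 5 stood alone high for the mean of the glycolysis and hypoxia list (11.42, others 10.70 to 10.80), for Pfkfb3 (9.69, others 7.81 to 8.04), Bpifb1 (11.35, others 6.09 to 6.90) and Epha7 (10.91, others 8.44 to 8.82), and low for Igf2 (8.53, others 10.79 to 11.53). Carcinoma 4 stood alone high for the mean of the class I and interferon list (9.26, others 7.89 to 8.07) and low for Cdh2 (9.32, others 10.76 to 11.34). Carcinoma 2 was low for Car2 (9.68, others 12.19 to 12.57) and Efnb2 (8.01, others 8.84 to 9.05) and high for Slc35f2 (10.42) and Rmst (6.72). Carcinoma 3 was high for Dynlrb2 (7.32) and Cdr1os (6.09) and low for Acaca (9.54, others 9.80 to 9.87).

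Among the normal arrays, array 1 was high for Cdkn1a (11.01, others 10.56 to 10.59), Bmp5 (8.46), Ezh2 (9.23), Gja1 (9.88), Npas2 (9.88) and the chemokine list mean (7.34), and low for Dnmt1 (9.21). Normal array 4 was high for Ak7 (11.26), Cfap44 (11.14) and Epha7 (7.81) and low for Insig1 (10.26). Normal array 5 was low for Uty (7.98, others 10.09 to 10.44) and high for Clock (12.24). Normal array 2 was high for Sox4 (8.0). Normal array 3 was low for the Polycomb list mean (9.08) and high for the chromosome 19 level (0.0046, others -0.0035 to -0.0014).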

How the results depend on the processing

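Of 240 genes whose change against normal tissue is given as past the threshold, 235 kept their direction and their call under all of the 19 alternatives run for each. Eif4a2 reversed to 0.72 with the mean of its probe sets, and Egr1, Erc2, Hmox1 and Renbp lost their call without single arrays. The number of genes past the threshold was 7703 to 8745 with single arrays left out and 8044 to 9184 under the other settings on genes, and 11491 on all 41155 probe sets. Calls were higher in carcinoma in 49.4% of cases, and in 54.5% with all arrays set to a common median. With the replicate number as a block the counts were 8220 against normal tissue and 2268 against papilloma, and no named gene lost its call under this block. Against papilloma the count was 1882 to 3038 with single arrays left out and 1329 without the normal arrays, a fit on fewer samples. This last fit, the tests on all probe sets against papilloma and the single arrays left out there were chosen after seeing the data. A fit on carcinoma and normal arrays alone, planned for the papilloma comparison, could not hold it.

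Of 57 list counts 49 stayed within 1.5 times their value. With single arrays left out the falls among neural progenitor genes numbered 3 to 7, those of mature neuron markers 3 to 9 and of oligodendrocyte markers 5 to 8, and the rises of macrophage markers 2 to 4. A common median left 3 falls of progenitor genes, and the fit without papillomas gave 14 rises of immediate early genes. Testing only genes above the array median in 5 arrays removed dim members, leaving 1 fall of lymphocyte markers, 0 of neutrophil and mast cell markers, of which none was left to test, and 3 of pituitary genes. The chromosome 12 level was -0.19 with this filter (exact permutation adjusted p = 0.0529). Without the genes that differ from papilloma it was -0.0899 for chromosome 12 (adjusted p = 0.0794 by exact permutation), 0.0294 for chromosome 15, 0.0151 for chromosome 4 and 0.0152 for chromosome 7. That choice of genes uses the same carcinoma values and tends to shrink such levels. With single carcinomas left out, chromosome 8 gave -0.116 to -0.0537 and chromosome 19 -0.0984 to -0.0419. The cause of these shifts was not tested.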
